A study of Mus musculus with 27 samples.

Results

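The genes described here carry glucose into the cell, split it to pyruvate, and pass pyruvate on to lactate or to the mitochondrion, together with the creatine kinases that buffer the ATP so made. They were chosen as a list of 38 gene symbols, of 19301 genes measured by a probe set with 1 symbol. Of the 38, 34 had such a probe set and 28 passed the filter on dim genes, which kept 12441 genes above the median of all values (2.83, log2) in at least 3 arrays.

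The data are 27 arrays of mouse retinal cells, 3 in each of 9 groups, and each array was hybridised with RNA of 200 cells that a sorter picked from adult tissue by their GFP or RFP. Cones carried GFP from the Tg(Chrnb4-EGFP)1Gsat line, and starburst amacrine cells carried RFP from the Rosa26-LSL-RFP reporter opened by the Cre of the 129S6-Chat_tm1(cre)Lowl/J line. For the titration, each pool took 2 cone-line and 6 starburst-line retinas, and its cells were sorted as pure starburst cells, pure cones and 3 mixtures (150, 100 or 50 starburst cells with 50, 100 or 150 cones). A further 3 groups, the X mixtures, held 43, 125 or 17 starburst cells with 157, 75 or 183 cones, and the design does not say from which pools. The last group held amacrine cells of the Tg(Arc-EGFP)194Gsat/Mmcd line, which the design names as an internal batch control. The labels give every group the same mixed background, of C57BL/6J and an FVB/N-Swiss Webster hybrid. Per the growth protocol, mice from the MMRRC repository were such hybrids and carried a recessive allele for photoreceptor loss, so the F2 of a cross to C57BL/6J was used, whereas the remaining lines were already on C57BL/6J. Cell type, mouse line and the transgene used to find the cell cannot be told apart in any comparison, nor can Arc cells and the batch they may form.

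Glycolysis splits glucose into pyruvate with a small yield of ATP, and lactate dehydrogenase turns pyruvate into lactate while restoring the NAD that the pathway needs. Many steps have several isoforms encoded by different genes. The retina is known for making lactate in the presence of oxygen, and photoreceptors are held to be its main consumers of glucose. The split of these isoforms between cones and 2 kinds of amacrine cell was followed across the groups.

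The labels fitted the defining markers. On the pure cone arrays 7 of 8 cone markers were above the filter level on all 3 arrays, and Opn1mw, the green cone opsin gene, stood between 10.18 and 11.34 (log2). On the starburst and on the Arc arrays 4 of 8 cone markers were above that level on all 3. Their linear sums were 85.5 to 248 and 60.5 to 184 there, against 4774.5 to 11721 on the cone arrays. Of the starburst markers, Slc18a3, the vesicular acetylcholine transporter gene, stood between 10.59 and 10.77 on the pure starburst arrays and between 2.81 and 3.56 on the pure cone arrays, whereas Chat itself reached 3.81 to 4.58 on the starburst arrays. Arc amacrine arrays held Gad1 at 8.22 to 8.52 and had Slc18a3 near the filter level (2.84 to 3.25). Of 7 listed markers of other amacrine cells, 6 were above that level on all 3 Arc arrays, and Slc6a9 was under it. On the pure starburst and on the pure cone arrays 5 of the 7 were above it on all 3. Their linear sums were 1024 to 1221 on Arc, 767 to 796 on starburst and 176 to 278 on cone arrays. The cone arrays were not free of rods. The mean log2 value of the 7 measured rod markers was 6.26, 6.16 and 7.75 on the 3 pure cone arrays, against 5.28 to 5.93 on starburst and 4.49 to 5.04 on Arc arrays, and the linear sum of these markers was 2556 to 4094, 512 to 997 and 295 to 477. The third cone array also had less cone signal (mean of the cone markers 8.0, against 9.30 and 9.31). The same split showed on the third arrays of the mixed groups with 150, 157 or 183 cones, so results that rest on those arrays are given without them too. The rule used for this, groups with 100 or more cones, also drops the third 100:100 array, which had no such split (cone marker means 8.60, 8.38 and 8.65). It keeps the third array of 125 starburst cells and 75 cones, where the cone marker mean was 5.15, against 7.41 and 7.28 on the other arrays of that group. On the third cone array 20 of the 28 tested members were at their lowest of the 3 arrays, against 42.9% of all tested genes. Markers of 2 more cell types differed between the groups. The linear sum of the 6 ganglion cell markers was 117 to 192 on Arc arrays, against 48.7 to 68.4 on starburst and 58.8 to 94.4 on cone arrays, with Rbpms and Pou4f1 under the filter level on all 9. The sum of the 5 measured bipolar cell markers was 98.6 to 135 on cone arrays, against 31.4 to 53.6 on starburst and 31.5 to 37.1 on Arc arrays, with Grm6 under the filter level on all 9. Muller glia markers were present in each unmixed cell type, with 4 of 6 above the filter level on all 3 arrays. Their linear sum was 306 to 467 on starburst, 206 to 327 on cone and 257 to 353 on Arc arrays. Whether rods, ganglion cells, bipolar cells, Muller glia or, on cone arrays, amacrine cells took part in any result below was not tested.

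Cones differed from starburst cells in genes of lactate dehydrogenase, phosphofructokinase, aldolase and creatine kinase, and less firmly in 1 gene of lactate transport. Of 28 tested members, 5 were called in cones against starburst cells (adjusted p under 0.05 in limma and a log2 difference of at least 1), where 8.42% of all tested genes were called. The 3 lower ones, Ldhb, Pfkm and Aldoc, encode isoforms of lactate dehydrogenase, phosphofructokinase and aldolase, and lower calls made up 5.79% of all tested genes. The 2 higher ones, Ckmt1 and Slc16a1, encode the mitochondrial creatine kinase and a carrier of lactate and pyruvate, and higher calls made up 2.64%. Slc16a1 was under the filter level on all starburst arrays, and its call was lost in 7 of the alternatives tried. At an adjusted p under 0.05 and any fold, 8 members passed (28.6%), beside 14.1% of all tested genes. The median member differed by -0.11 (log2) and the median tested gene by -0.04.

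**Figure D1:**
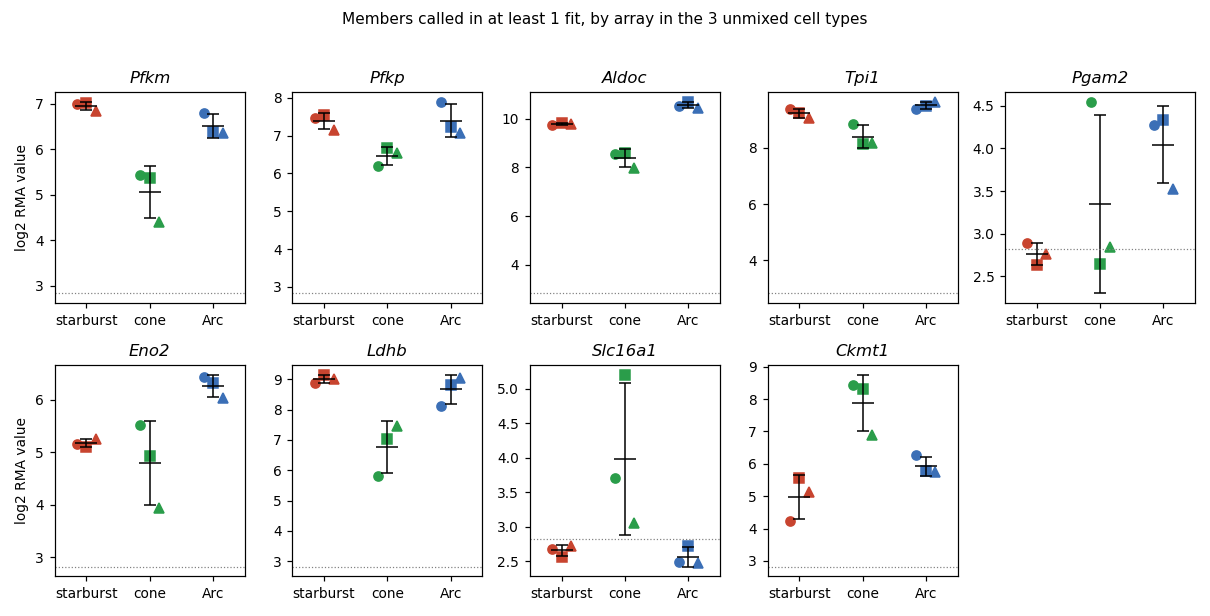
Log2 RMA values (vertical axis) of the 9 members called in at least 1 fit, on each array of the 3 unmixed cell types (horizontal axis); circle, square and triangle are replicates 1, 2 and 3, black bars are the mean and 1 SD, and the dotted line is the filter level of 2.83. Ldhb, Pfkm and Aldoc lie lower on all cone arrays than on any other, and Ckmt1 and Slc16a1 higher.

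Ldhb encodes the heart-type subunit of lactate dehydrogenase, and Ldha the muscle-type subunit. Ldhb stood at 8.86, 9.12 and 9.0 (log2) on the starburst arrays, at 5.82, 7.02 and 7.47 on the cone arrays and at 8.12, 8.81 and 9.05 on the Arc arrays. Every cone array lay below every amacrine array. The mean was 8.99 ± 0.13 (SD, n = 3) in starburst cells and 6.77 ± 0.85 in cones, a 4.66-fold lower value in cones (log2 difference -2.22 ± 0.33 SE, limma adjusted p = 6.22e-05). Arc cells were 3.71-fold above cones (1.89 ± 0.33, limma adjusted p = 0.000291), while the Arc and starburst values overlapped (-0.33, 95% interval -1.02 to 0.36). Ldha was not called in any of these comparisons: it stood at 9.39 to 9.71, 9.26 to 9.99 and 9.58 to 9.80 in starburst, cone and Arc cells.

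A limit applies to the Ldhb value. Probe set identifiers of this array run along the chromosomes, so that for 98.4% of 19363 probe sets most of the 10 nearest identifiers belong to genes of the same chromosome. The sets used for Ldhb (chromosome 6), Hk1 (chromosome 10) and Pgk1 (chromosome X) had 0 of 10 and lay among identifiers of genes of chromosomes 19, 14 and 12. Whether these probe sets read a copy of the gene elsewhere was not tested.

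Phosphofructokinase commits sugar to glycolysis and is built from muscle, liver and platelet subunits, encoded by Pfkm, Pfkl and Pfkp. Pfkm stood at 7.0, 7.01 and 6.84 in starburst cells, at 5.42, 5.36 and 4.40 in cones and at 6.80, 6.37 and 6.35 in Arc cells. The 3 groups did not overlap in Pfkm, with the cones apart from both amacrine types. Cones were 3.69-fold lower than starburst cells (-1.88 ± 0.33, limma adjusted p = 0.000359), and Arc cells were 2.72-fold above cones (1.44 ± 0.33, limma adjusted p = 0.00347). Pfkp stood at 7.48, 7.56 and 7.15 in starburst cells, at 6.20, 6.66 and 6.54 in cones and at 7.90, 7.23 and 7.08 in Arc cells. Its cone values were again the lowest, but the difference of -0.93 ± 0.25 from starburst cells passed the p (limma adjusted p = 0.0128) and missed the fold. Pfkl had group means 5.63 ± 0.26 in Arc cells and 4.69 ± 0.34 in cones (0.95 ± 0.31, limma adjusted p = 0.0352), which also missed the fold.

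Aldolase splits the 6-carbon sugar, and Aldoc is its brain-type gene beside the widely used Aldoa. Aldoc stood at 9.73, 9.82 and 9.76 in starburst cells, at 8.56, 8.60 and 7.96 in cones and at 10.51, 10.69 and 10.44 in Arc cells. The 3 cell types formed 3 separate levels, with Arc cells highest. Cones were 2.63-fold below starburst cells (-1.39 ± 0.18, limma adjusted p = 8.88e-06), and Arc cells were 4.51-fold above cones (2.17 ± 0.18, limma adjusted p = 1.32e-08). Arc cells exceeded starburst cells by 0.78 ± 0.18 (limma adjusted p = 0.00801), under the fold needed for a call. Aldoa ran from 10.27 to 10.93 over all 27 arrays and was called nowhere.

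Triosephosphate isomerase interconverts the 2 products of aldolase. Tpi1 stood at 9.36, 9.22 and 9.07 in starburst cells, at 8.85, 8.14 and 8.18 in cones and at 9.37, 9.49 and 9.63 in Arc cells. The cone arrays were again the lowest. Arc cells were 2.16-fold above cones (1.11 ± 0.21, limma adjusted p = 0.000645), a difference of 0.98 without the second cone array and so no call there. The cone to starburst difference was -0.83 ± 0.21 (limma adjusted p = 0.00975).

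Enolase 2 is the neuronal enolase and Pgam2 the muscle phosphoglycerate mutase. Eno2 stood at 5.15, 5.11 and 5.25 in starburst cells, at 5.52, 4.94 and 3.94 in cones and at 6.44, 6.32 and 6.03 in Arc cells. All Arc values lay above all others. Arc cells were 2.75-fold above cones (1.46 ± 0.33, limma adjusted p = 0.00272, and 0.0526 when only these 2 groups were fitted). Against starburst cells they differed by 1.09 ± 0.33 (limma adjusted p = 0.0514). Over the alternatives tried this limma adjusted p ran from 0.000392 to 0.178. The lowest came when the third arrays of the groups with 100 or more cones, which are in neither group compared, were left out. Pgam2 stood at 2.90, 2.63 and 2.76 in starburst cells, at 4.55, 2.65 and 2.84 in cones and at 4.28, 4.34 and 3.52 in Arc cells. Most of these values lay near the filter level, with 1 cone array far above the other cone arrays. Pgam2 was the single member called in Arc against starburst cells (2.43-fold higher, 1.28 ± 0.37, limma adjusted p = 0.0446), where 3.55% of all tested genes were called, 2.16% higher and 1.39% lower. That call did not last without an array: its adjusted p was 0.170 without the first Arc array, 0.178 without the second, 0.0888, 0.139 and 0.103 without starburst arrays 1, 2 and 3, and 0.0609 with no filter on dim genes. It was 0.0668 when the third arrays of the groups with 100 or more cones were left out.

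Slc16a1 encodes MCT1, a carrier of lactate and pyruvate across the cell membrane. It stood at 2.68, 2.57 and 2.73 in starburst cells, at 3.71, 5.20 and 3.05 in cones and at 2.49, 2.73 and 2.48 in Arc cells. Of these 9 values only the 3 from cones were above the filter level of 2.83, so Slc16a1 passed the filter through arrays that hold cones and has no more than a bound in the amacrine cells. Against that level the cone mean of 3.99 was at least 2.24-fold higher. The fitted differences were 1.33 ± 0.42 for cones against starburst cells (limma adjusted p = 0.0388) and -1.42 ± 0.42 for Arc cells against cones (limma adjusted p = 0.0222). The second cone array set much of the size: without it the differences were 0.72 (adjusted p = 0.260) and -0.81 (adjusted p = 0.169). The first call was also lost without the first cone array (adjusted p = 0.0505) or starburst array 1, 2 or 3 (0.0882, 0.101 and 0.0765), with no filter on dim genes (0.0547) and with only the 2 groups fitted (0.169). The second was lost without Arc array 1 or 3 (0.0676 and 0.0616) and with only the 2 groups fitted (0.121). When the third arrays of the groups with 100 or more cones were left out, the cone to starburst difference was 1.79 (adjusted p = 0.0021).

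Ckmt1 encodes the mitochondrial creatine kinase, which loads creatine with phosphate from ATP made in the mitochondrion, and Ckb the brain-type cytosolic enzyme. Ckmt1 stood at 4.23, 5.56 and 5.14 in starburst cells, at 8.45, 8.32 and 6.88 in cones and at 6.26, 5.76 and 5.74 in Arc cells. The groups did not overlap, with the cones highest and the starburst cells lowest. Cones were 7.48-fold above starburst cells (2.90 ± 0.57, limma adjusted p = 0.0011), and 3.40 higher in log2 terms without the third arrays named above. Arc cells were 3.89-fold below cones (-1.96 ± 0.57, limma adjusted p = 0.0189), a call that was lost without Arc array 2 or 3 or cone array 1 or 2 (adjusted p = 0.0607, 0.0593, 0.0791 and 0.0741). Ckb stood between 9.94 and 10.12 on the unmixed arrays other than the third cone array, which read 9.05.

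In Arc cells against cones, 7 members were called, 5 higher (Aldoc, Ldhb, Eno2, Pfkm, Tpi1) and 2 lower (Ckmt1, Slc16a1). Among all tested genes 10.3% were called, 7.83% higher and 2.51% lower. This comparison shares the cone arrays with the first one and the Arc arrays with the one against starburst cells, so the 3 are not independent. Without the third arrays of the groups with 100 or more cones, all 5 calls of cones against starburst cells held, with Ldhb at -2.57, Pfkm at -1.55 and Aldoc at -1.19. In Arc cells against cones Aldoc was then at 1.97, Ldhb at 2.24, Pfkm at 1.11, Ckmt1 at -2.46 and Slc16a1 at -1.89, all still called.

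**Figure D2:**
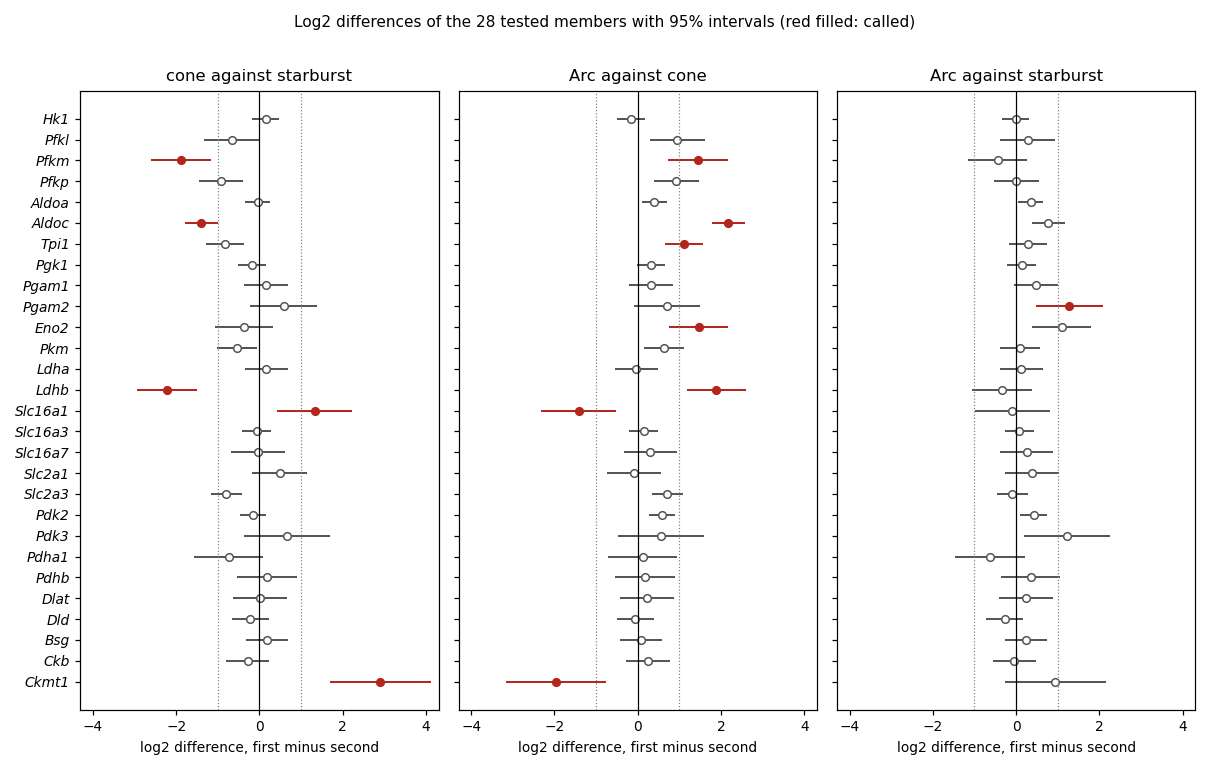
Log2 difference (horizontal axis, first cell type minus second) of each of the 28 tested members (vertical axis) in the 3 comparisons of unmixed cell types; lines are 95% intervals, filled red points are called, and dotted lines mark a log2 difference of 1. Called members number 5 in cones against starburst cells, 7 in Arc cells against cones and 1 in Arc against starburst cells. Of all tested genes 8.42%, 10.3% and 3.55% were called in these comparisons.

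The other members were not called. Hexokinase 1, which traps glucose in the cell, had Hk1 values of 10.30 to 10.90 over all arrays, from a probe set with the limit given above, while a second Hk1 set ran from 3.21 to 4.29. Pgk1, phosphoglycerate kinase, ran from 8.97 to 9.63. Pkm, pyruvate kinase, ran from 8.37 to 9.75 and its Arc to cone difference was 0.63 ± 0.22 (limma adjusted p = 0.0547). A second Pkm set ran from 7.55 to 9.14, and with it that difference was 0.22. Cone and starburst values overlapped for each of Hk1, Pgk1 and Pkm. Pgam1 ran from 6.52 to 7.77.

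The glucose carriers stood near the filter level. Slc2a1 (GLUT1) ran from 2.84 to 4.69 over all arrays, with 95% intervals of -0.14 to 1.11 for cones against starburst cells. Slc2a3 (GLUT3, the neuronal carrier) stood at 3.19, 3.05 and 3.57 in starburst cells, at 2.50, 2.53 and 2.38 in cones and at 3.39, 2.94 and 3.22 in Arc cells. All 3 cone values were under the filter level and below every amacrine value, so the cones have only a bound, with starburst cells at least 1.36-fold and Arc cells at least 1.28-fold higher. The fitted differences passed the p but not the fold (cones minus starburst cells -0.80 ± 0.17, limma adjusted p = 0.00208; Arc cells minus cones 0.71 ± 0.17, limma adjusted p = 0.0043). The lactate carriers Slc16a3 and Slc16a7 ran from 3.31 to 4.17 and from 1.92 to 3.28. Bsg, the basigin chaperone that brings carriers such as MCT1 to the membrane, stood at 5.45 to 5.79 in starburst cells, 5.40 to 6.12 in cones and 5.88 to 5.94 in Arc cells.

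Pyruvate dehydrogenase turns pyruvate into acetyl-CoA, and its kinases switch it off. The subunit genes Pdha1, Pdhb, Dlat and Dld ran from 3.50 to 5.89, 5.13 to 6.88, 4.20 to 5.75 and 2.87 to 4.12 over all arrays, with no call. Pdk3 stood at 2.90, 3.79 and 3.44 in starburst cells, at 4.33, 4.97 and 2.81 in cones and at 5.03, 4.63 and 4.11 in Arc cells, and Arc cells exceeded starburst cells by 1.22 ± 0.49 without passing the test (limma adjusted p = 0.191). Pdk2 was under the filter level on all cone and starburst arrays, so these have only a bound, with Arc cells at least 1.11-fold higher. The fitted difference between Arc cells and cones was 0.57 ± 0.14 (limma adjusted p = 0.00535), again under the fold. It rests on cone values under that level. Hk2, Pdk1, Pdk4, Pfkfb2, Pfkfb3 and Pfkfb4 did not pass the filter and stood between 1.78 and 2.93. The last 3 encode enzymes that set the level of fructose 2,6-bisphosphate, the activator of phosphofructokinase. Gpi1, Gapdh, Eno1 and Pfkfb1 were not analysed here, since no probe set carries their symbol alone.

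Levels of different probe sets cannot be set against each other, but the difference between an isoform and its partner on each array can be compared between cell types. Of 17 pairs listed, 10 had both genes past the filter. Cones and starburst cells did not overlap in 8 of the 10 pair differences, Arc cells and cones in 7, and Arc and starburst cells in 6. Of single tested genes 28.9%, 34.2% and 25% did not overlap. That is not a like measure for pair differences, and no share over pairs of other genes was computed. With 3 arrays against 3 the smallest two-sided p of the exact permutation test is 0.1, so no pair could reach 0.05. A gene of 4 of the 10 pairs (Slc16a1 in 2, Slc2a3 and Pdk2) was under the filter level on every array of cones or starburst cells. Without these 4 pairs cones and starburst cells did not overlap in 5 of 6. By the same rule Arc cells and cones did not overlap in 4 of 6 pairs, and Arc and starburst cells in 5 of 7. Pairs that share a gene, such as those with Pfkm or Slc16a1, are not independent.

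**Figure D3:**
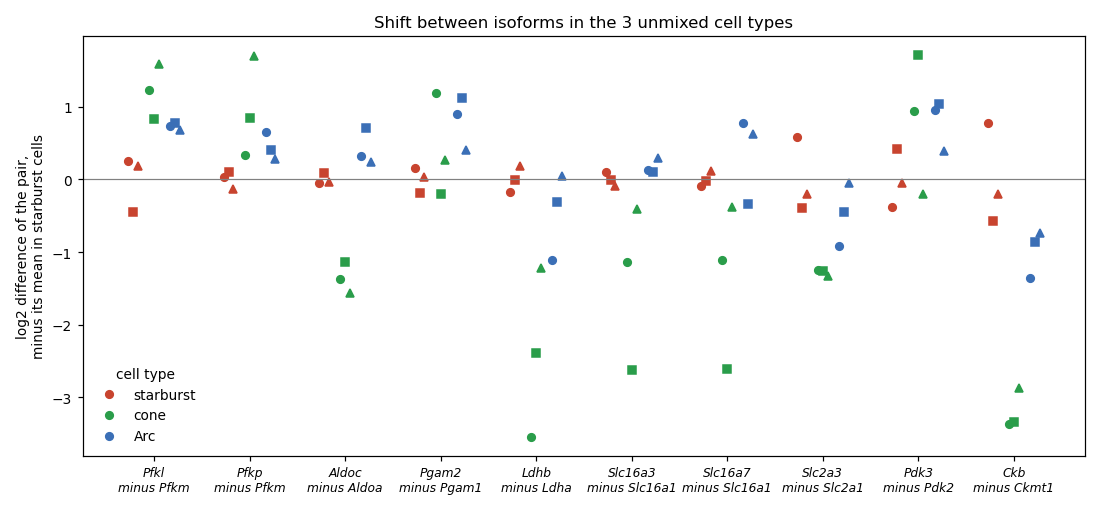
Difference in log2 value between the 2 genes of a pair on each array (vertical axis), set relative to its mean in starburst cells, for the 10 pairs compared (horizontal axis); colours are cell types, and circle, square and triangle are replicates 1, 2 and 3. Cone arrays lie lowest for Ldhb minus Ldha, Aldoc minus Aldoa and Ckb minus Ckmt1.

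The creatine kinase pair moved most. Ckb minus Ckmt1 was 5.80, 4.46 and 4.83 on the starburst arrays, 1.67, 1.70 and 2.16 on the cone arrays and 3.68, 4.17 and 4.30 on the Arc arrays. The cones shifted towards the mitochondrial gene by 3.19 ± 0.43 in log2 relative to starburst cells and by 2.21 ± 0.25 relative to Arc cells (exact permutation test, p = 0.1 for each). The third cone array, whose single values were low for both genes, lay with the others in this difference.

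In lactate dehydrogenase, Ldhb minus Ldha was -0.74, -0.58 and -0.39 in starburst cells, -4.11, -2.97 and -1.79 in cones and -1.68, -0.88 and -0.53 in Arc cells. The cones shifted from the B gene towards the A gene, by -2.39 ± 0.68 against starburst cells (exact permutation test, p = 0.1), with a wide spread among the cone arrays. The limit given above for the Ldhb probe set applies to this shift and to the Ldhb results below. Aldoc minus Aldoa was -0.79, -0.65 and -0.77 in starburst cells, -2.10, -1.87 and -2.30 in cones and -0.42, -0.02 and -0.49 in Arc cells. Here the 3 cell types were again 3 separate levels, with shifts of -1.35 ± 0.13 for cones against starburst cells and 1.78 ± 0.19 for Arc cells against cones (exact permutation test, p = 0.1 for each).

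Among phosphofructokinase genes, Pfkl minus Pfkm was higher in cones by 1.22 ± 0.31 than in starburst cells, and Pfkp minus Pfkm by 0.96 ± 0.40 (exact permutation test, p = 0.1 for each). Arc cells were also above starburst cells in both, by 0.73 ± 0.23 and 0.45 ± 0.13 (exact permutation test, p = 0.1 for each). Arc cells and cones overlapped in Pfkp minus Pfkm. Slc2a3 minus Slc2a1 was -1.64, -1.65 and -1.72 in cones and 0.20, -0.78 and -0.58 in starburst cells. The difference between the group means was -1.28 ± 0.30 (exact permutation test, p = 0.1). It rests on Slc2a3 values under the filter level in cones, and with those set to that level it was -0.93. Pdk3 minus Pdk2 overlapped in all 3 comparisons.

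The mixtures put the same question to other arrays. A slope on the share of cones was fitted over the 18 arrays of the 6 mixed groups alone, which hold none of the pure arrays but may come from the same pools. In such mixed samples fewer cells of a type and less RNA per cell cannot be told apart. Of 28 members, 3 had a called slope, all falling with the share of cones (Ldhb, Pfkm, Pfkp), where 5.71% of all tested genes had one, 4.44% falling and 1.27% rising.

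**Figure D4:**
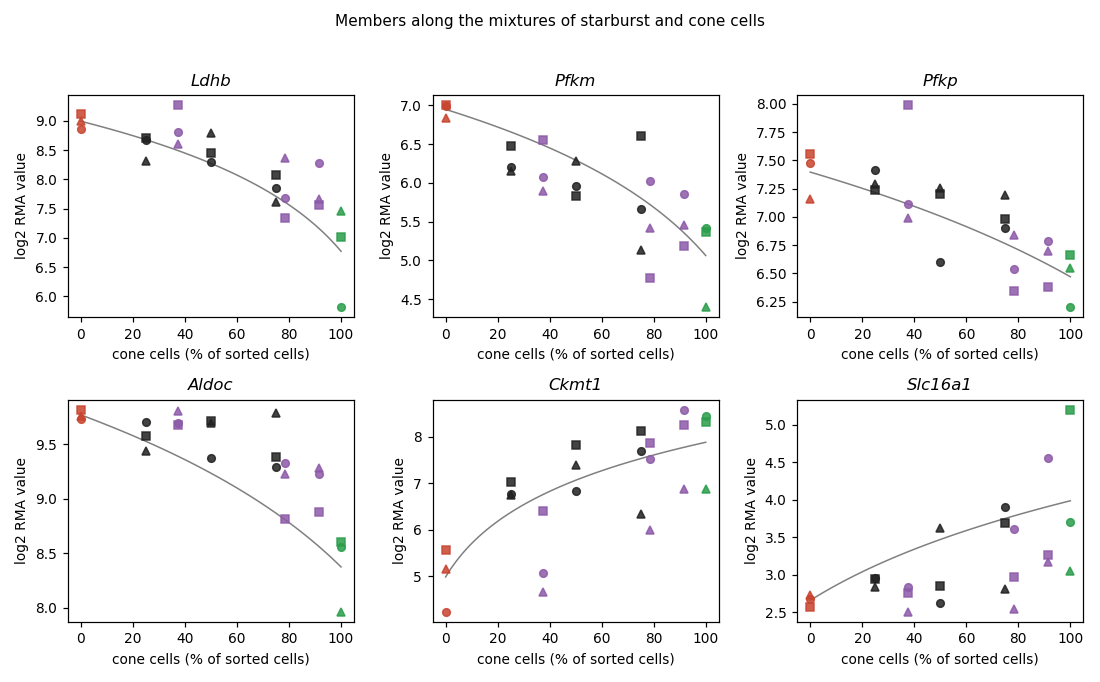
Log2 RMA values (vertical axis) of 6 members against the percent of cones among the sorted cells (horizontal axis); red is pure starburst, green pure cone, black the titration mixtures and purple the X mixtures, with circle, square and triangle for replicates 1, 2 and 3. The grey curve joins the means of the pure groups as a straight mix of linear values with equal RNA per cell; Aldoc means lie above it in all 6 mixed groups.

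Ldhb fell by 1.64 ± 0.34 in log2 from 0 to 100% cones in this fit (slope -1.64, limma adjusted p = 0.00536). Its mixture means were 8.56 ± 0.22 at 25% cones, 8.89 ± 0.34 at 37.5%, 8.51 ± 0.25 at 50%, 7.85 ± 0.23 at 75%, 7.79 ± 0.52 at 78.5% and 7.83 ± 0.38 at 91.5% (SD, n = 3). The 3 groups with up to 50% cones thus lay at 8.51 to 8.89, and the 3 with more cones at 7.79 to 7.85. At 91.5% cones the mean lay 0.67 above the straight mixing curve.

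Pfkm fell with a slope of -1.30 ± 0.39 (limma adjusted p = 0.0456, and 0.0525 with the replicate number as a block). This call was lost in 12 of the alternatives tried, among them leaving out the third arrays of the groups with 100 or more cones (-1.10, adjusted p = 0.158). It was also lost without the group of 150:50, 100:100, 43:157, 125:75 or 17:183 starburst to cone cells (adjusted p = 0.205, 0.0836, 0.0861, 0.126 and 0.141). Pfkp had a slope of -1.15 ± 0.29 (limma adjusted p = 0.0214), lost without the 150:50, 43:157 or 17:183 group (adjusted p = 0.101, 0.0747 and 0.115). It was also lost over the 15 titration arrays, where the slope of -0.85 was under the fold, and without the third arrays of every group with cones (-1.40, adjusted p = 0.0501). Pfkp means ran from 7.37 ± 0.54 at 37.5% cones to 6.57 ± 0.25 at 78.5%.

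Aldoc passed the p but not the fold (slope -0.82 ± 0.23, limma adjusted p = 0.0327). Its mixture means were 9.58, 9.73, 9.59, 9.49, 9.12 and 9.13 at 25%, 37.5%, 50%, 75%, 78.5% and 91.5% cones, all above the straight mixing curve, by 0.05 to 0.62. All of these means lay between the starburst level, 9.77, and the cone level, 8.37, and nearer the starburst level. Those at 78.5% and 91.5% cones (SD 0.27 and 0.22, n = 3) were close to midway.

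The genes higher in cones did not pass along the mixtures. Ckmt1 had a slope of 2.21 ± 0.85 (limma adjusted p = 0.128) and Slc16a1 of 1.13 ± 0.45 (limma adjusted p = 0.137). The third arrays of cone-rich mixtures stood low for Ckmt1, at 6.34 at 75% cones, 6.00 at 78.5% and 6.87 at 91.5%, beside 7.69 and 8.13, 7.52 and 7.86, and 8.59 and 8.27 on the other arrays. Without the third arrays of the groups with 100 or more cones both slopes were called (Ckmt1 3.25, adjusted p = 0.0231; Slc16a1 1.66, adjusted p = 0.0216). At 37.5% cones Ckmt1 averaged 5.38 ± 0.91, under the 6.85 ± 0.16 seen at 25%. The summed cone markers on those arrays were also lower, 614 to 2951 at 37.5% against 3658 to 4468 at 25%, and the part of this in the Ckmt1 values was not tested.

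Promoters of 4 members are shown because these genes moved apart between cones and amacrine cells: Aldoc and Ldhb were lower in cones, Slc16a1 and Ckmt1 higher. Each is the 250 bases before the start of transcription from RefSeq (GRCm38.p6), at chr11:78322823-78323072 (plus strand), chr6:142507958-142508207 (minus strand), chr3:104638414-104638663 (plus strand) and chr2:121357526-121357775 (plus strand). Where RefSeq lists several starts, the outermost was used. Capitals mark matches, on either strand, to ACGTG or GCGTG, the core bound by hypoxia-inducible factors, or to GGATTA, a core bound by the photoreceptor factor Crx.
Aldoc: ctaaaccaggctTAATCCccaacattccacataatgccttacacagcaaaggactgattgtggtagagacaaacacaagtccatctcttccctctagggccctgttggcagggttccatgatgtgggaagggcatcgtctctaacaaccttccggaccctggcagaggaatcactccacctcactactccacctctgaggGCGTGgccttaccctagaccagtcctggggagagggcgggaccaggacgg
Ldhb: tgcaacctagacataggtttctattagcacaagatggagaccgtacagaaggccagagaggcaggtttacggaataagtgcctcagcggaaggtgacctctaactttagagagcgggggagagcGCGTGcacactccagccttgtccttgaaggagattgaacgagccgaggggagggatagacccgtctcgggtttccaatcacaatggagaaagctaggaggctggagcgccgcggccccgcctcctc
Slc16a1: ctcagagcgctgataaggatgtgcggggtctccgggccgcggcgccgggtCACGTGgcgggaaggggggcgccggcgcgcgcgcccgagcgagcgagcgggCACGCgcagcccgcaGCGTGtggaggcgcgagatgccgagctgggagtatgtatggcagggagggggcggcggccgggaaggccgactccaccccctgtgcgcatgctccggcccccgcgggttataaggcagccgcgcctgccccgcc
Ckmt1: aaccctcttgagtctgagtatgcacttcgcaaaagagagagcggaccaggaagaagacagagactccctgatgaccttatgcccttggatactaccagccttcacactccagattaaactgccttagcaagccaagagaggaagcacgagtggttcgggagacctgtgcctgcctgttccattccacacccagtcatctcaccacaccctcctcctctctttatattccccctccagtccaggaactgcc

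Aldoc held 1 match of each kind, Ldhb 1 and Slc16a1 4 of the hypoxia core, and Ckmt1 none of either. A CACGTG matches on both strands and counts as 2. Over the list, a promoter was found for 35 of 38 members, and 23 of these held the hypoxia core, beside 38.6% of 27024 genes. The Crx core was in 3 of 35 (Aldoc, Pfkp, Pfkfb4), beside 6.36% of genes. A match describes the letters and is no evidence of binding.

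Around the pathway, 8 lists of 108 neighbouring genes were read from the same fits, of which 101 were measured and 71 tested. In cones against starburst cells 5 were called higher and 7 lower (16.9%), in Arc against starburst cells 2 higher and 2 lower (5.63%), in Arc cells against cones 12 higher and 5 lower (23.9%), and along the mixtures 3 rising and 5 falling (11.3%). The rates over all tested genes were 8.42%, 3.55%, 10.3% and 5.71%.

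**Figure D5:**
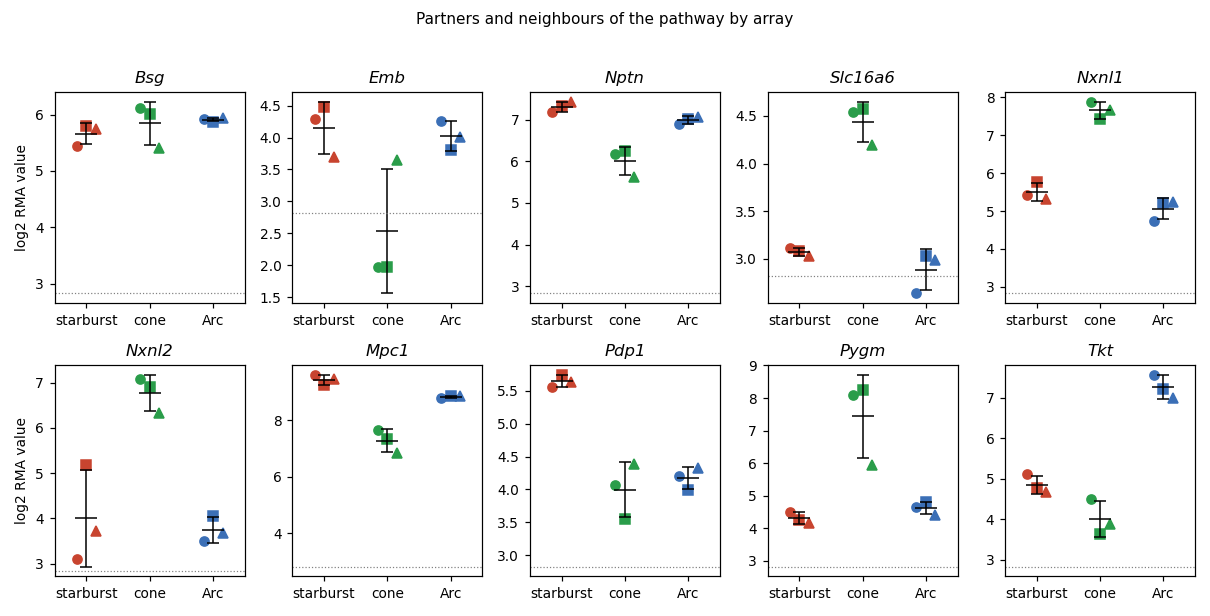
Log2 RMA values (vertical axis) of Bsg and 9 neighbouring genes on each array of the 3 unmixed cell types (horizontal axis); circle, square and triangle are replicates 1, 2 and 3, black bars are the mean and 1 SD, and the dotted line is the filter level of 2.83. Nxnl1, Nxnl2, Slc16a6 and Pygm are higher on every cone array, and Mpc1 and Nptn lower, than on any amacrine array.

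Of 16 tested genes of pyruvate import and the citric acid cycle, 2 were called in cones against starburst cells, Mpc1 and Pdp1, both lower. Mpc1, a subunit of the mitochondrial pyruvate carrier, stood at 9.59, 9.25 and 9.48 in starburst cells, at 7.67, 7.32 and 6.85 in cones and at 8.79, 8.85 and 8.84 in Arc cells. The 3 cell types did not overlap, and cones were 4.46-fold below starburst cells (-2.16 ± 0.17, limma adjusted p = 1.6e-08) and Arc cells 2.93-fold above cones (1.55 ± 0.17, limma adjusted p = 1.25e-06). Along the mixtures Mpc1 had a slope of -1.72 ± 0.21 (limma adjusted p = 0.000103). Pdp1, the phosphatase that switches pyruvate dehydrogenase on, stood at 5.56, 5.75 and 5.64 in starburst cells, at 4.06, 3.55 and 4.38 in cones and at 4.20, 4.0 and 4.33 in Arc cells. Here the starburst cells stood apart and cones and Arc cells overlapped (cones against starburst cells -1.65, limma adjusted p = 2.29e-05; Arc against starburst cells -1.47, limma adjusted p = 0.000154).

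Of 8 tested genes of other sugar and lactate transport, 3 were called in cones against starburst cells (Slc16a6 higher, Emb and Nptn lower) and 2 in Arc cells against cones (Slc16a6 and Emb). Slc16a6, a monocarboxylate carrier family member, stood at 3.11, 3.08 and 3.03 in starburst cells, at 4.54, 4.57 and 4.20 in cones and at 2.64, 3.03 and 2.99 in Arc cells, and was 2.58-fold higher in cones than in starburst cells (1.37 ± 0.23, limma adjusted p = 0.000223). Emb, embigin, a relative of basigin that partners such carriers, stood at 4.29, 4.47 and 3.70 in starburst cells, at 1.97, 1.98 and 3.65 in cones and at 4.26, 3.80 and 4.01 in Arc cells. It was lower on all cone arrays, least so on the third (-1.62 ± 0.34, limma adjusted p = 0.00194), and along the mixtures it had a slope of -2.37 ± 0.29 (limma adjusted p = 0.000111). With only the 2 groups fitted, its adjusted p was 0.0915. Nptn, neuroplastin, another member of that family, was 2.45-fold lower in cones than in starburst cells (-1.29 ± 0.19, limma adjusted p = 4.93e-05). Bsg itself was called in none of the 4 fits.

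Nxnl1 and Nxnl2 encode the rod-derived cone viability factors, and a product of Nxnl1 is known to bind basigin and raise glucose uptake by cones. Nxnl1 stood at 5.41, 5.77 and 5.31 in starburst cells, at 7.88, 7.44 and 7.67 in cones and at 4.75, 5.21 and 5.24 in Arc cells. Nxnl2 stood at 3.10, 5.18 and 3.72, at 7.09, 6.90 and 6.32 and at 3.51, 4.05 and 3.67. Both were higher on every cone array than on any amacrine array, as was the mean of the rod markers given above, and were 4.48-fold and 6.81-fold above starburst cells (2.17 ± 0.33 and 2.77 ± 0.43, limma adjusted p = 6.78e-05 and 8.33e-05). Both rose along the mixtures (slopes 2.18 and 2.51, limma adjusted p = 0.018 and 0.005), though the Nxnl1 slope lost its call without the 50:150 or 17:183 group (adjusted p = 0.0516 and 0.149) and without the third arrays of every group with cones (0.103). Hif1a, the hypoxia-inducible factor, was 2.43-fold higher in Arc cells than in cones (1.28 ± 0.19, limma adjusted p = 4e-05). Myc was called along the mixtures alone (slope -1.30, limma adjusted p = 0.0126), and its slope over the 15 titration arrays was -0.08 (adjusted p = 0.927); its call was also lost without the 150:50 or 43:157 group (adjusted p = 0.201 and 0.0585).

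Glycogen genes moved in both directions. Pygm, muscle glycogen phosphorylase, stood at 4.51, 4.24 and 4.17 in starburst cells, at 8.10, 8.24 and 5.96 in cones and at 4.67, 4.79 and 4.41 in Arc cells. It was 8.74-fold higher in cones than in starburst cells (3.13 ± 0.76, limma adjusted p = 0.0067), with the third cone array lowest of the cones. Ugp2 and Gyg, which make the glycogen precursor and its primer, were lower in cones than in starburst cells (Ugp2 -1.42 ± 0.17, limma adjusted p = 4.49e-06; Gyg -1.10 ± 0.36, limma adjusted p = 0.0462, and 0.0561 with the replicate block). Arc cells exceeded cones in Gyg, Gbe1 and Phkg2, which act in making or breaking down glycogen (2.31, 1.36 and 1.45). The Gyg call in cones was lost without any 1 of the 6 arrays compared (adjusted p = 0.0552 to 0.177), that of Gbe1 without the first cone array (difference 0.98) or with only the 2 groups fitted (adjusted p = 0.0677), and that of Phkg2 without any Arc array or cone array 1 or 3 (adjusted p = 0.0533 to 0.143).

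Of the other glycolysis enzymes, Eno3, the muscle enolase, was 3.40-fold higher in cones than in starburst cells (1.76 ± 0.34, limma adjusted p = 0.001) and Pgm1, a phosphoglucomutase, 3.64-fold higher in Arc cells than in cones (1.86 ± 0.40, limma adjusted p = 0.00186). In the pentose phosphate pathway Tkt, transketolase, stood at 5.11, 4.76 and 4.67 in starburst cells, at 4.51, 3.62 and 3.88 in cones and at 7.57, 7.22 and 6.99 in Arc cells. Its Arc values lay far above both, 5.32-fold above starburst cells (2.41 ± 0.41, limma adjusted p = 0.00052) and 9.56-fold above cones (3.26 ± 0.41, limma adjusted p = 5.45e-06). No other of the 8 tested genes of that pathway was called in any fit.

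The NADH shuttles carry reducing power from glycolysis into the mitochondrion. Gpd2, the mitochondrial glycerol phosphate dehydrogenase, was lower in cones, where all 3 arrays were under the filter level, than in starburst cells (at least 1.94-fold, fitted difference -1.25 ± 0.41, limma adjusted p = 0.0423), Got1, the cytosolic aspartate aminotransferase, was higher in Arc cells than in either other type (1.27 against starburst cells and 1.11 against cones, limma adjusted p = 0.0412 and 0.0383), and Slc25a12, the aspartate and glutamate carrier, was lower in Arc than in starburst cells (-1.12, limma adjusted p = 0.0341). None of these calls stood without single arrays. That of Gpd2 was lost without any cone array or starburst array 1 or 2 (adjusted p = 0.0784 to 0.18), and that of Slc25a12 without Arc array 1 or 3 or any starburst array (0.0628 to 0.138). The Got1 calls were lost without any Arc array, the first also without any starburst array (0.0806 to 0.135), and the second also without the third cone array, where the difference was 0.59 (adjusted p = 0.271). Among 6 tested genes of creatine and adenylate buffering besides the 2 members, Ak1, an adenylate kinase, was higher in Arc cells than in cones (1.24 ± 0.22, limma adjusted p = 0.000406) and no other was called.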

How the data were processed

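Arrays were made from 200 sorted cells each, 3 per group. The deposited values are log2 values from RMA, which the authors ran with oligo under R 2.11.1. Per the submitters' processing notes the build was mm9. Which arrays were normalized together is not given in the sources used here. Totals do not apply to arrays, and their number limits the precision. Of 22347 probe sets, 19446 had 1 symbol, 735 several and 2166 none in the platform table, and only the first were used, taking the one of highest mean per gene.

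All 27 arrays entered one limma 3.58.1 fit in R 4.3.3 with eBayes and a mean for each group, leaving 18 residual degrees of freedom. The slope used the 18 mixed arrays and left 16. Tests were two-sided, with Benjamini-Hochberg adjustment over all 12441 tested genes, and a call needed an adjusted p under 0.05 and a log2 difference of at least 1. The code was tested on simulated data. Intervals and SE come from limma; those of isoform pairs are from the arrays themselves, and their test is an exact permutation test. The members and lists were chosen with earlier results of these data known. Members called in any fit are given on every unmixed array; of each list up to 4 called genes with the largest differences and groups that do not overlap are named, with Bsg. Per the design, titration replicates with the same number came from one pool. Correlations of their deviations ran from -0.03 to 0.24, with 3 of 30 over 0.1, and fits with and without that block were made. Nothing in the labels ties X or Arc arrays to a pool. Of 54 correlations of an X array with the same-numbered titration or X array, 13 were over 0.1, 8 of them between arrays numbered 3; pure cones and the 17:183 mixture had 0.197, 0.125 and 0.305. Whether X arrays share pools with the titration was not tested. A gene under the filter level on all 3 arrays of a group is given as a bound against that level.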

Additional observations from a re-analysis of the deposited data

How the results depend on the processing

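Alternatives were another filter on dim genes, the probe set of largest variance, centring of arrays, fits of only the groups compared, a variance trend, array weights, linear values, the replicate block, arrays or mixed groups left out, the 15 titration arrays, and the third arrays left out, once for groups with 100 or more cones and once, chosen after seeing the data, for every group holding cones. No member or listed gene that was called changed direction. Isoform pairs were not called. Over 210 alternatives none of their 30 shifts moved by as much as the pooled SD of the 2 groups, a check that does not read direction. That check could not have failed, so the stability of the pair shifts was not tested by it. Leaving out an array from groups of this size cannot move a shift that far. The members with another probe set are in no pair compared, so changing the probe set left these shifts as they were. Of 16 member calls, 8 kept their call in every alternative, and 43 of 259 fits lost one. Of 41 calls of listed genes, 24 kept theirs.

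In cones against starburst cells, members called higher numbered 2, and 1 with no filter or with only the 2 groups fitted; leaving out single replicates gave 1 to 2. In Arc against starburst cells the 1 member called higher became 0 with no filter, 2 with a stricter filter, 2 with only the 2 groups fitted and 2 with array weights; leaving out replicates gave 0 to 1. In Arc cells against cones the 2 members called lower became 1 with only the 2 groups fitted, and 0 to 2 without single replicates. Along the mixtures, members called rising went from 0 to 2 without the third arrays of groups with 100 or more cones, 1 without those of every group with cones, and 2 over the 15 titration arrays. Members called falling ranged from 1 to 3, and all genes called from 411 to 651 beside 711, without single mixed groups, which leaves fewer arrays. The cause was not tested for the rest.

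With the replicate block, called genes numbered 1081, 449, 1331 and 742 in the 4 fits, beside 1048, 442, 1286 and 711. Arc arrays share only a number with the others; there the block gave an adjusted p of 0.0532 for Pgam2 and 0.022 for Eno2 against starburst cells and 0.0538 for Gpd2 against cones. Besides these and the values given above for Pfkm and Gyg, the block changed no call of a member or listed gene.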
